A study of Mus musculus with 10 samples.

Results

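Amino acid carriers were described in NMC cells, an established line of normal mouse cholangiocytes, the epithelial cells of bile ducts. The carriers were taken by symbol, as every gene of the solute carrier families Slc1, Slc3, Slc6, Slc7, Slc36, Slc38 and Slc43 with a plain family number, which gave 61 of the 18407 genes in the count table. No measured value entered that choice. The cells had grown for 6 days as 3D double spheroids, either in collagen I at 1 mg/mL (5 libraries) or in laminin and collagen I mixed 3:1 by volume (5 libraries). All libraries came from 1 cell line, both matrices contained collagen I, and how the spheroids were divided into replicates is not stated, so each p-value reflects only how far these libraries spread.

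Amino acid carriers move their substrates in 3 main ways. Sodium-driven carriers of the Slc1, Slc6 and Slc38 families concentrate amino acids in the cell, and exchangers such as those of Slc7 trade one amino acid for another. Proton-coupled carriers such as Slc36a1 work at the plasma membrane and the lysosome. Most Slc7 exchangers reach the membrane only as a pair, a light chain bound to a heavy chain of the Slc3 family. Bile duct epithelium is known to take up glutamate, glycine and cysteine that are released from biliary glutathione, and taurine is a conjugating partner of bile acids. The symbol rule also takes carriers of other substrates, among them the monoamine carriers Slc6a2, Slc6a3 and Slc6a4, the creatine carrier Slc6a8 and the purine nucleobase carrier Slc43a3.

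Library totals lay between 4424725 and 8129979 counts. Levels are in CPM, counts relative to the normalised library total, and 3 counts, up to which a gene listed at 0 could lie, stood for 0.365 to 0.691 CPM by counting error alone. Of 10 cholangiocyte markers, all 10 had a mean of 1 CPM or more, and they summed to 3729 to 5727 CPM in collagen and 3756 to 5451 CPM in laminin. Their means ran from 1.40 CPM (Cftr) and 5.07 CPM (Krt7) to 1176 CPM (Krt8). Of the markers of other cell types, Ptprc, Lum and Gfap had a mean of 0.0160 CPM and Cyp3a11, Cdh5, Kdr, Adgre1, Rbfox3 and Snap25 were at 0. Those with a mean of 1 CPM or more were Alb (27.1 CPM), Col1a1 (12.8), Ttr (9.01), Pdgfra (6.65), Slc17a7 (5.93), Dcn (5.79), Cd68 (5.00), Tubb3 (3.36), Des (2.51), Pdgfrb (2.03), Apoa1 (1.77) and Vwf (1.27). The hepatocyte marker sum was above every collagen library in laminin replicates 2 to 5, and 23.0 CPM in laminin replicate 1. Collagen libraries carry the code letters B (replicates 1 to 3) and D (4 and 5), laminin libraries E (1 to 3) and F (4 and 5). The letters' meaning is not stated, and each occurs in 1 matrix only, so letter and matrix cannot be told apart.

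Of the 61 carriers, 25 had enough counts for the main test, and none of them passed it (adjusted p from 0.204 to 0.994, quasi-likelihood test of edgeR, Benjamini-Hochberg adjusted over 10789 genes, of which 0.148% passed). The 2 with an unadjusted p under 0.05 were Slc6a9, a glycine carrier, and Slc6a6, the taurine carrier. Both were on the higher side in laminin, which is 8% of the 25, against 6.70% of all genes tested. No carrier was lower at that threshold, against 4.95% of all genes. None of the 25 had group ranges that did not overlap, against 1.94% of all genes higher and 1.30% lower. The median log2 difference, laminin minus collagen, was 0.12 over the 25 carriers and 0.01 over all genes, and 18 of 25 carriers lay above 0 (72.0%, against 51.7% of all genes). After each library's dependence on transcript length and GC content had been taken out, 15 of 25 lay above 0 (60%, against 48.8%), at a median of 0.04.

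A glutamate carrier below the count filter was higher in every laminin library. Slc1a3, known as GLAST or EAAT1, is a sodium-driven glutamate carrier best known from astrocytes. It had 0, 0, 3, 1 and 1 counts in collagen replicates 1 to 5, and 9, 9, 16, 37 and 12 counts in laminin replicates 1 to 5. The groups did not overlap, and no collagen library was above the limit of 3 counts. With no filter on counts, 1 of 45 carriers had groups that did not overlap (2.22%, against 2.72% of 14423 genes). In CPM the level was 0.146 ± 0.153 in collagen and 2.75 ± 1.68 in laminin (SD, n = 5 per group, as for every ± below), with laminin replicate 4 highest at 5.54 and laminin replicate 1 lowest at 1.26. The pooled counts, 5 against 83, gave a ratio of 17.8 (95% exact binomial interval 7.32 to 56.2, counting error only).

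Slc1a3 was named after its values were seen, and its test comes from fits with other filters. In edgeR with no filter on counts it was higher in laminin at an adjusted p of 0.0245 over 14423 genes, of which 0.201% passed. With a filter of 1 CPM in 5 libraries, which it met only through the laminin libraries, the adjusted p was 0.0370 in edgeR (0.162% of 11122 genes passed), and DESeq2 gave 1.62e-04 (1.48% of 14422 genes passed). In unfiltered edgeR it no longer passed when 1 library was left out, namely collagen replicate 2 (adjusted p = 0.0755), collagen replicate 5 (0.0991), laminin replicate 3 (0.0626) or laminin replicate 5 (0.0523), nor without letter D (0.0667), E (0.0602) or F (0.0823). Over the alternatives to the unfiltered fit, the adjusted p ran from 1.62e-04 to 0.0991. Laminin replicate 4 also had the highest sums of fibroblast and stellate markers (54.4 CPM, against 23.7 to 30.9 in the other laminin libraries and 25.5 to 33.1 in collagen) and of hepatocyte markers (78.2 CPM, against 23.0 to 53.1 and 18.7 to 35.4). Without that library Slc1a3 gave an adjusted p of 0.0277 in unfiltered edgeR at a log2 difference of 3.52, against 3.97 with it. The fitted difference moved most without collagen replicate 3 (4.72) and without letter E (4.58) or F (3.37), and it is not a bound, since 2 collagen libraries were at 0. Of the 7 fibroblast and stellate markers 5 had a mean of 1 CPM or more, and of the 6 hepatocyte markers 3 did, with Cyp3a11 at 0. Those 5 did not go 1 way. Pdgfrb (0.620 CPM in collagen, 3.44 in laminin), Pdgfra (4.01, 9.30) and Col1a1 (11.5, 14.2) had higher means in laminin. Dcn (8.10, 3.47) and Des (3.12, 1.91) had lower ones. Of 6 neural markers 2 had a mean of 1 CPM or more, Tubb3 and Slc17a7. The neural marker sum ran from 8.2 to 10.8 CPM in collagen and 6.2 to 12.9 CPM in laminin. The part of these markers in the result was not tested. In bulk RNA, fewer cells of a type and less RNA per cell cannot be told apart.

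**Figure D1:**
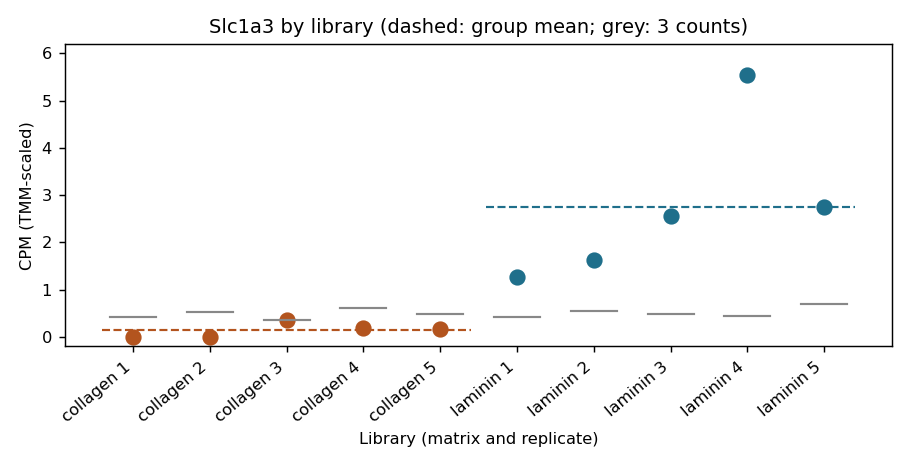
Slc1a3 in each library, in CPM on a linear axis, by matrix and replicate. Each point is 1 library, dashed lines are group means (0.146 and 2.75 CPM), and each grey bar is the CPM that 3 counts stand for in that library. All 5 laminin points lie above their grey bars, and no collagen point does.

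Slc1a3 lies on chromosome 15 from 8634124 to 8710764 on the minus strand of GRCm38 (GENCODE M21), and no exon of another gene overlaps its exons there. Its upstream sequence is shown because this carrier differed between the matrices in the unfiltered test, and that of Slc7a11 because it carries the element of the amino acid response taken up further on. Both are 250 bases 5′ of the RefSeq start on GRCm38.p6, minus strand, at chr15:8710808-8711057 and chr3:50443614-50443863. Capitals mark CCAAT boxes (CCAAT) in both, a TATA box (TATAAA) in Slc1a3 and the C/EBP-ATF response element (TGATGNAA) in Slc7a11, each searched on both strands.

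Slc1a3: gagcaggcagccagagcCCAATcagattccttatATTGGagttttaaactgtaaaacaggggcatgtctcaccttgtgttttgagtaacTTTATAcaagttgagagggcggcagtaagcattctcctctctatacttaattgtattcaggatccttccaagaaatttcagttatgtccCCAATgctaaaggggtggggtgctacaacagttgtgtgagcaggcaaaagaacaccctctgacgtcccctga

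Slc7a11: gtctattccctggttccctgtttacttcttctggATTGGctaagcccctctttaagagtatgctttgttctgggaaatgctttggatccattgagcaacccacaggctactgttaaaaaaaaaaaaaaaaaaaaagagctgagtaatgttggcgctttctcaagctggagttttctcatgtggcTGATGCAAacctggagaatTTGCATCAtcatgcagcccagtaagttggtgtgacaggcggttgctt

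In Slc1a3 the TATA match lies on the opposite strand at 156 to 161 bases before the start. Slc7a11 holds 2 copies of the response element, at 59 to 66 and, on the opposite strand, at 40 to 47 bases before the start. RefSeq windows matched 43 of the 61 carriers, in 64 windows. The response element was in 6.25% of the carriers' windows (Slc7a11, Slc7a7 and Slc6a21) and in 3.45% of all 32851 windows of that length. TATAAA was in 9.38% and 12.4%, and CCAAT in 25.0% and 33.8%, respectively. A match is a description of letters, not a shown site.

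The other Slc1 carriers did not pass the test or were too low for it. Slc1a5 (ASCT2), which exchanges glutamine and other neutral amino acids, was at 57.9 ± 4.80 CPM (collagen) and 60.02 ± 8.20 CPM (laminin), and its relative Slc1a4 (ASCT1) was at 48.7 ± 3.28 and 51.9 ± 8.15 CPM. Slc1a2, the glutamate carrier GLT-1, was at 3.82 ± 1.83 and 3.76 ± 1.10 CPM, a log2 difference of -0.01 with a 95% interval of -0.74 to 0.72. Slc1a1, the glutamate carrier known from kidney and intestine, and Slc1a6 had no count in any library. Slc1a7 had at most 2 counts in a library. In collagen, then, Slc1a2 was the only glutamate carrier of the family above 3 counts in a library, while in laminin Slc1a2 and Slc1a3 both were. Per kilobase of longest transcript, Slc1a2 had a mean level of 0.329 CPM in collagen and 0.325 in laminin, and Slc1a3 one of 0.0329 in collagen and 0.621 in laminin.

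Among the paired exchangers the heavy chain Slc3a2 (4F2hc, CD98) was abundant, and the light chain Slc7a5 (LAT1), an exchanger of large neutral amino acids, was the highest of its partners per kilobase. Slc3a2 was at 257, 263, 282, 382 and 343 CPM in collagen replicates 1 to 5 and at 339, 345, 312, 301 and 340 CPM in laminin replicates 1 to 5. Collagen replicates 4 and 5, of letter D, were above all other collagen libraries, and the groups overlapped. The log2 difference was 0.10 (SE 0.12, adjusted p = 0.794 in edgeR). It turned to -0.17 without the collagen libraries of letter B (adjusted p = 0.281).

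Slc7a5 was at 218, 220, 227, 239 and 247 CPM in collagen and at 256, 228, 187, 176 and 207 CPM in laminin. Laminin replicate 1 was the highest library and laminin replicates 3 and 4 the lowest, with overlapping groups and a log2 difference of -0.13 (SE 0.11, adjusted p = 0.704 in edgeR). Slc7a6 (y+LAT2), which exchanges cationic for neutral amino acids, was at 75.7 ± 6.88 and 83.9 ± 11.4 CPM. Slc7a7 (y+LAT1), its basolateral relative, was at 10.1 ± 2.78 and 9.63 ± 2.46 CPM. Exons of Slc7a7 overlap those of Oxa1l on the opposite strand (64.5 CPM in collagen), so its level is uncertain if reads were counted on both strands.

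Slc7a11 (xCT), which brings in cystine for glutathione in exchange for glutamate, varied more within collagen than between matrices. It stood at 64.3 and 70.3 CPM in collagen replicates 1 and 2 and at 31.9, 27.7 and 29.4 CPM in replicates 3, 4 and 5. Laminin libraries lay between these sets, from 34.8 to 57.8 CPM. The log2 difference was -0.04 (95% interval -0.62 to 0.55, adjusted p = 0.973 in edgeR). Across the alternatives it ran from -0.34 to 0.59, and it kept its sign in 15 of 22 fits.

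Per kilobase of longest transcript, Slc3a2 was at 108 ± 19.4 CPM (collagen) and 116 ± 7.01 CPM (laminin). The 4 detected light chains that pair with it summed to 94.99 ± 2.17 and 91.3 ± 8.65 CPM per kilobase. The heavy chain stood at 1.14 ± 0.197 times that sum in collagen and 1.28 ± 0.0823 times in laminin, with ranges of 0.970 to 1.44 and 1.16 to 1.37 that overlapped. Of the light chain sum, Slc7a5 made up 69.0 ± 2.97% in collagen and 65.5 ± 4.46% in laminin, and Slc7a6 21.3 ± 1.99% and 24.7 ± 4.58%. Slc7a8 (LAT2) and Slc7a10, 2 further partners of Slc3a2, had no count in any library. The other heavy chain, Slc3a1 (rBAT), had 2 to 6 counts in collagen libraries and 1 to 9 in laminin, while its light chain Slc7a9 had 1 count in all.

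**Figure D2:**
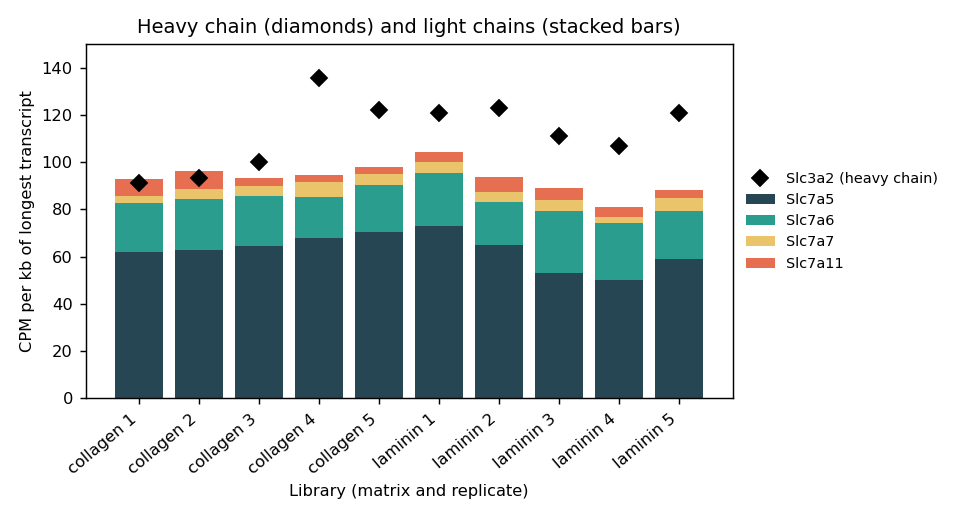
Slc3a2 (diamonds) and its 4 detected light chains (stacked bars), in CPM per kilobase of longest transcript, in each library. The light chain sum stays between 80.9 and 104 in all 10 libraries, while the heavy chain runs from 91.4 in collagen replicate 1 to 136 in collagen replicate 4.

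Carriers of cationic amino acids were led by Slc7a1 (CAT1), with Slc7a2 (CAT2) next. Slc7a1 was at 220, 219, 192, 155 and 180 CPM in collagen replicates 1 to 5 and at 228, 238, 249, 197 and 199 CPM in laminin replicates 1 to 5. The collagen libraries of letter D were the lowest, and the groups overlapped at a log2 difference of 0.20 (SE 0.12, adjusted p = 0.543 in edgeR). Slc7a2 was at 130, 114, 76.4, 54.1 and 68.3 CPM in collagen and at 99.2, 130, 152, 128 and 94.0 CPM in laminin. Collagen replicates 3 to 5 lay below every laminin library, while collagen replicates 1 and 2 lay within the laminin range. Its log2 difference was 0.44 (SE 0.23, adjusted p = 0.468 in edgeR).

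Without the 3 collagen libraries of letter B, Slc7a2 gave a log2 difference of 0.95 (adjusted p = 0.0214 in edgeR), and Slc38a2 (0.50, adjusted p = 0.0334), Slc36a4 (0.62, adjusted p = 0.0329) and Slc1a3 (adjusted p = 0.0259) also passed. Slc1a3, with 1 count in each of the 2 collagen libraries left, met the filter there only through the laminin libraries. In that fit of 2 collagen against 5 laminin libraries, 18.9% of 11018 genes passed. The adjusted p of Slc7a2 ran from 0.0214 to 1.00 over the alternatives, that of Slc38a2 from 0.0334 to 1.00 and that of Slc36a4 from 0.0329 to 1.00. Slc7a4, a relative of the cationic carriers with no settled substrate, was at 10.03 ± 2.34 and 8.03 ± 1.69 CPM. Its exons overlap those of P2rx6 on the opposite strand (5.43 CPM in collagen and 3.64 in laminin). The level and difference of Slc7a4 are therefore uncertain if reads were counted on both strands.

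In the Slc6 family all 4 tested carriers had differences above 0 (against 51.7% of all genes), and the 2 lowest p-values of the 25 carriers fell here. Slc6a6 (TauT), the sodium- and chloride-driven taurine carrier, had the highest mean level of all 61 carriers, also per kilobase. It was at 813, 915, 899, 706 and 768 CPM in collagen replicates 1 to 5 and at 1390, 867, 1106, 1068 and 909 CPM in laminin replicates 1 to 5. Laminin replicates 1, 3 and 4 were above every collagen library, and laminin replicates 2 and 5 lay within the collagen range. The level was 1.30-fold that in collagen (log2 difference 0.38, SE 0.14, 95% interval 0.09 to 0.67), at an unadjusted p of 0.0150 and an adjusted p of 0.307 in edgeR. Over the alternatives the adjusted p ran from 0.0669 to 1.00. With the length and GC offset the log2 difference was 0.22. The unadjusted p was under 0.05 in 19 of 22 fits of edgeR or DESeq2, but not with that offset or without letter D or E.

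Slc6a9 (GlyT1), a glycine carrier, was at 34.6, 32.5, 40.6, 53.9 and 47.8 CPM in collagen and at 69.8, 60.7, 58.0, 50.8 and 61.8 CPM in laminin. Only laminin replicate 4 and collagen replicate 4 kept the groups from separating. The level was 1.44-fold that in collagen (log2 difference 0.53, SE 0.15, 95% interval 0.20 to 0.85), at an unadjusted p of 0.00375 and an adjusted p of 0.204 in edgeR. Over the alternatives its adjusted p ran from 0.0578, in the fit with a length and GC offset, to 1.00, and without the collagen libraries of letter B its log2 difference was 0.22. Exons of Slc6a9 overlap those of B4galt2 and Ccdc24 on the opposite strand. Those genes were at 22.6 CPM in collagen against 17.8 in laminin and at 4.69 against 3.64 (adjusted p = 0.340 and 0.679 in edgeR). Slc6a9 lies on chromosome 4 from 117834506 to 117875198 and Slc6a6 on chromosome 6 from 91684053 to 91759066, both on the plus strand of GRCm38.

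The other tested members of the family were Slc6a8, the creatine carrier, at 44.4 ± 12.7 CPM (collagen) and 48.7 ± 13.8 CPM (laminin), and Slc6a19 (B0AT1) at 2.63 ± 0.819 and 2.93 ± 0.888 CPM. Slc6a19 takes up neutral amino acids in kidney and intestine. The unadjusted p was 0.545 for Slc6a8 and 0.689 for Slc6a19 in edgeR, and their signs turned in 2 and 3 of 22 fits. Slc6a7, a proline carrier, was below the filter, with 1 count in collagen (replicate 4) and 14 in laminin (3, 5 and 6 in replicates 2 to 4, and 0 in replicates 1 and 5). Its unadjusted p was 0.0117 in edgeR with no filter, and its adjusted p 0.325.

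**Figure D3:**
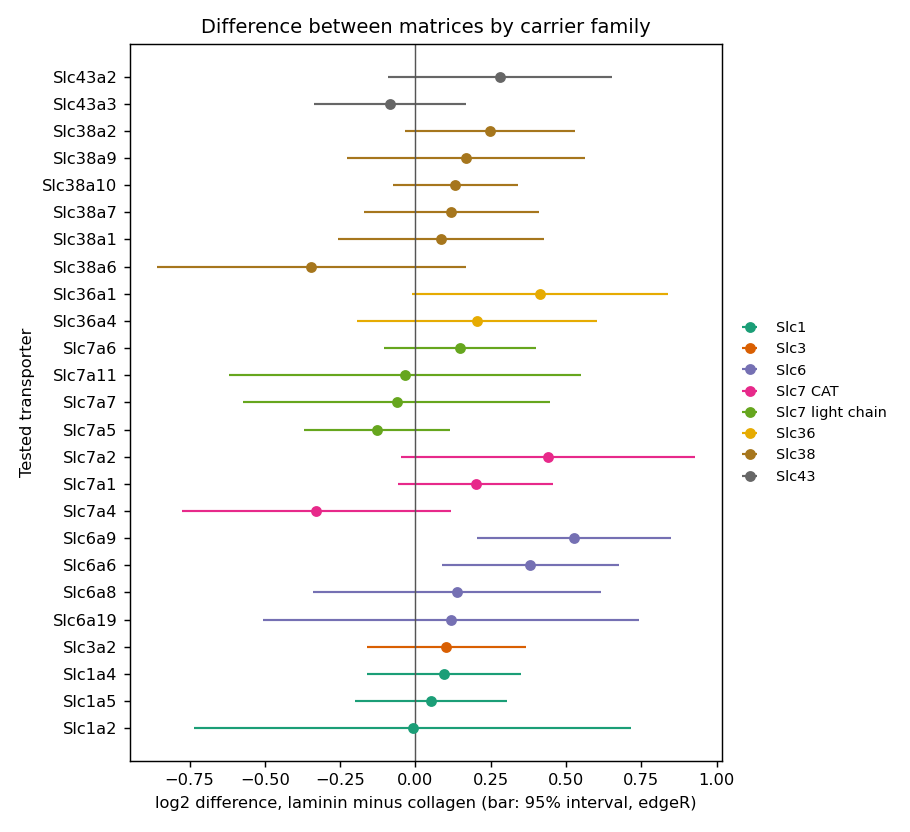
Log2 difference between matrices, laminin minus collagen, of the 25 tested carriers, grouped by family, with 95% intervals from edgeR. The intervals of Slc6a9 (0.20 to 0.85) and Slc6a6 (0.09 to 0.67) lie above 0 before adjustment over all genes, and the other 23 cross 0.

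The sodium-driven Slc38 carriers of glutamine and other neutral amino acids were led by Slc38a2 (SNAT2), which cells are known to induce when amino acids run short. It was at 592, 520, 502, 381 and 416 CPM in collagen replicates 1 to 5 and at 528, 568, 605, 660 and 502 CPM in laminin replicates 1 to 5. Collagen replicates 4 and 5 lay below every laminin library, collagen replicate 3 lay level with the lowest, and collagen replicates 1 and 2 lay within the laminin range. The log2 difference was 0.25 (SE 0.13, adjusted p = 0.486 in edgeR).

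Slc38a10 was at 138, 133, 164, 144 and 151 CPM in collagen and at 149, 153, 155, 182 and 162 CPM in laminin, a log2 difference of 0.13 (SE 0.10, adjusted p = 0.632 in edgeR). Slc38a1 (SNAT1) was at 131, 146, 113, 101 and 108 CPM in collagen and at 133, 108, 129, 170 and 94.7 CPM in laminin, a log2 difference of 0.08 (SE 0.16, adjusted p = 0.880 in edgeR). Both sets of groups overlapped, and the highest library of each was laminin replicate 4. Without that library Slc38a1 gave -0.06. With the length and GC offset both signs turned, to -0.004 for Slc38a10 and -0.11 for Slc38a1.

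Lysosomal members of the family did not pass the test. Slc38a7 (SNAT7), which exports glutamine from lysosomes, was at 41.8 ± 8.62 and 45.3 ± 1.80 CPM, and Slc38a9, an arginine sensor of the mTORC1 pathway, at 16.3 ± 3.42 and 18.3 ± 3.82 CPM. Slc38a6 was at 8.93 ± 1.55 CPM (collagen) and 6.97 ± 2.42 CPM (laminin), the lowest log2 difference of the 25 (-0.35, 95% interval -0.86 to 0.17). Slc38a3 and Slc38a4, carriers known from liver, had 2 to 8 and 1 to 11 counts in single libraries.

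Of the Slc36 carriers, the proton-coupled Slc36a1 (PAT1) was at 23.7, 17.3, 18.2, 15.9 and 16.4 CPM in collagen and at 18.6, 21.1, 27.8, 35.5 and 18.9 CPM in laminin. Collagen replicate 1 alone overlapped the laminin range (log2 difference 0.41, SE 0.20, unadjusted p = 0.0548, adjusted p = 0.437 in edgeR). Slc36a4 (PAT4) was at 27.2 ± 7.76 and 31.4 ± 4.15 CPM. In the Slc43 family, Slc43a2 (LAT4), a carrier of branched-chain and other neutral amino acids, was at 24.5 ± 1.74 and 29.7 ± 8.22 CPM. Slc43a3 was at 83.4 ± 9.59 and 78.6 ± 8.91 CPM, and neither passed (adjusted p = 0.562 and 0.826 in edgeR).

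Levels were concentrated in a few carriers. As a mean over the 10 libraries, Slc6a6 made up 22.8% of the carriers' summed CPM per kilobase, Slc3a2 17.03%, Slc38a2 13.0% and Slc7a5 9.53%. These 4 held 62.4% of the sum, and the 10 highest held 85.5%. Slc38a10 (5.06%), Slc43a3 (4.69%), Slc7a1 (4.36%), Slc7a6 (3.21%), Slc1a5 (3.18%) and Slc38a1 (2.56%) followed.

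**Figure D4:**
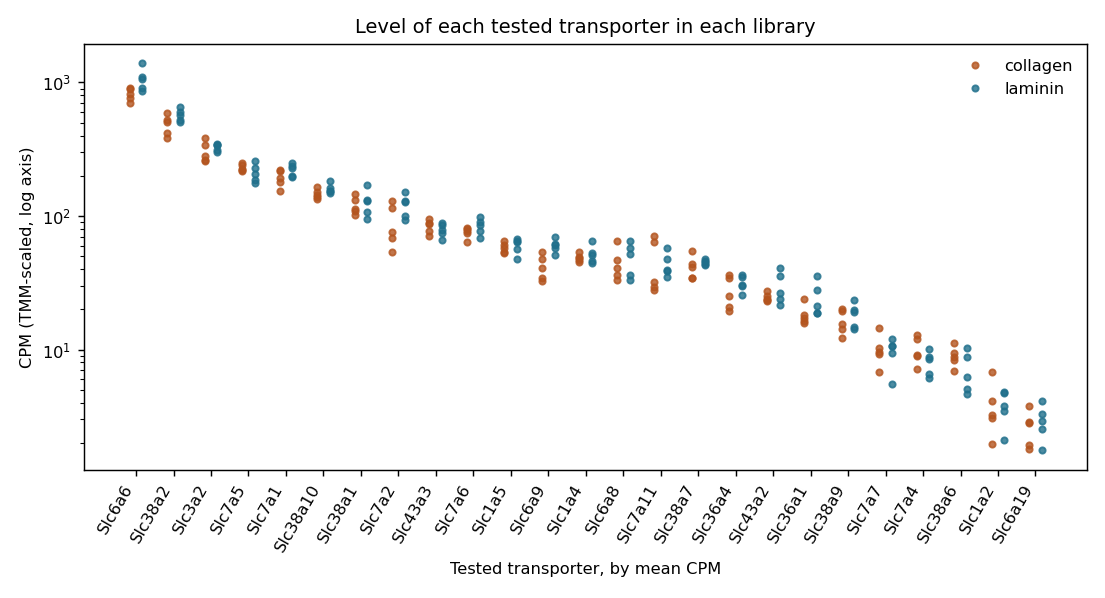
CPM of each of the 25 tested carriers in each library, on a log axis, ordered by mean CPM. Each point is 1 library, collagen to the left and laminin to the right. The carriers run from 944 CPM (Slc6a6) to 2.78 CPM (Slc6a19), and the groups overlap for every one of them.

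Of the 36 carriers that were not tested, 16 had no count in any library. They were Slc1a1, Slc1a6, Slc6a2, Slc6a5, Slc6a12, Slc6a13, Slc6a16, Slc6a21, Slc7a8, Slc7a10, Slc7a12, Slc7a13, Slc36a3, Slc38a5, Slc38a8 and Slc38a11. A further 13 had at most 2 counts in any library, among them Slc1a7, Slc6a3, Slc6a4, Slc6a14, Slc7a9, Slc7a14, Slc36a2 and Slc43a1. The monoamine carriers all fall in these 2 sets. The remaining 7 were Slc1a3, Slc3a1, Slc6a7, Slc6a15, Slc7a3, Slc38a3 and Slc38a4. Slc7a3 (CAT3) reached 12 counts and Slc6a15 reached 7.

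Genes around the carriers were taken from 6 lists. Over all genes, 0.148% were called in edgeR and 1.48% in DESeq2, so few calls are to be looked for in lists of this size. In the amino acid response, the factor ATF4 induces carriers and synthesis enzymes when amino acids are short. Of its 26 tested genes edgeR and DESeq2 each called 0, at a median log2 difference of 0.01. At an unadjusted p under 0.05 in edgeR there were 0, against 6.70% of all genes higher and 4.95% lower. Without letter B, edgeR called Ppp1r15b, Eif2ak3 and Cebpg (higher) and Shmt2 (lower), where 18.9% of all genes were called. ATF4's own gene Atf4 was at 338 ± 32.6 CPM (collagen) and 329 ± 45.5 CPM (laminin), and Asns, asparagine synthetase, at 204 ± 39.7 and 202 ± 58.8 CPM. The lowest p of this list belonged to Atf3, another factor of the stress response, at 14.2 ± 2.49 and 10.5 ± 2.70 CPM (unadjusted p = 0.0531, adjusted p = 0.435 in edgeR). Slc7a11, whose promoter holds the response element, did not differ beyond its spread either.

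In the list of lysosomal amino acid sensing and mTORC1, 0 of 36 genes were called and 2 were higher at an unadjusted p under 0.05 (5.56%, against 6.70% of all genes), at a median of 0.05, while DESeq2 called Flcn. Flcn, folliculin, which acts on the Rag GTPases at the lysosome, was at 58.6, 48.9, 53.3, 46 and 53.6 CPM in collagen and at 63.3, 69.9, 78.8, 83.5 and 63.8 CPM in laminin. Its groups did not overlap (adjusted p = 0.137 in edgeR).

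Enzymes of glutamine, glutamate, proline and serine metabolism had 0 of 21 called, 2 higher (9.52%, against 6.70% of all genes) and 1 lower (against 4.95%) at an unadjusted p under 0.05, at a median of -0.05, while DESeq2 called Got1. Got1, the cytosolic aspartate aminotransferase that interconverts glutamate and aspartate, was at 217, 225, 217, 265 and 243 CPM in collagen and at 342, 292, 316, 275 and 308 CPM in laminin. No laminin library was as low as any collagen library (log2 difference 0.39, SE 0.10, adjusted p = 0.140 in edgeR). Shmt1, cytosolic serine hydroxymethyltransferase, had an adjusted p of 0.345 at 82.5 ± 11.2 and 104 ± 14.8 CPM, and Odc1, ornithine decarboxylase, 0.429 at 121 ± 11.6 and 102 ± 13.7 CPM.

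Cystine use and glutathione synthesis had 0 of 11 called and 1 higher at an unadjusted p under 0.05 (9.09%, against 6.70% of all genes), at a median of -0.01, and DESeq2 called 0. That gene was Gclc, the catalytic subunit of glutamate-cysteine ligase, at 290 ± 34.4 CPM (collagen) and 352 ± 18.9 CPM (laminin) (unadjusted p = 0.0147, adjusted p = 0.307 in edgeR).

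The list of carriers outside the 7 families, for amino acids and related solutes, had 0 of 19 called and 5 higher at an unadjusted p under 0.05 (26.3%, against 6.70% of all genes), at a median of 0.08, while DESeq2 called Slc17a1. The 19 include Slc7a6os, which is named for its place beside Slc7a6 and is not a carrier. The 5 were Slc17a1, Slc25a44, Slc16a10, Mfsd12 and Ctns, of which the last 2 were named after their values were seen. Slc16a10, the aromatic amino acid carrier TAT1, had 68.8 ± 11.5 CPM in collagen and 96.1 ± 23.5 in laminin (adjusted p = 0.309 in edgeR). Slc25a44, a mitochondrial carrier of branched-chain amino acids, was at 54.4 ± 0.890 and 65.8 ± 6.43 CPM with groups that did not overlap (adjusted p = 0.301). Ctns, the lysosomal cystine exporter, was at 28.6 ± 2.40 and 34.8 ± 3.89 CPM (adjusted p = 0.355), and Mfsd12, which brings cysteine into lysosomes, at 33.3 ± 7.63 and 43.1 ± 2.64 CPM (adjusted p = 0.348). Slc17a1 was at 2.22 ± 1.08 and 7.34 ± 5.82 CPM, with 17.4 CPM in laminin replicate 4, the library with the highest hepatocyte marker sum, whose part was not tested (adjusted p = 0.226).

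Partners and regulators of carriers had 1 of 17 called, Ace, and 4 higher at an unadjusted p under 0.05 (23.5%, against 6.70%), at a median of 0.06. Ace, angiotensin-converting enzyme, which trims peptides at the cell surface, rose from 17.4 ± 1.80 to 35.8 ± 6.52 CPM (adjusted p = 0.0192 in edgeR), and DESeq2 called it too. The edgeR call of Ace was lost with collagen replicate 2, 3 or 5 or laminin replicate 2, 3 or 5 left out, and without letter D, E or F. Nedd4l, a ubiquitin ligase that removes several carriers from the membrane, was at 67.7 ± 8.29 and 86.5 ± 6.09 CPM (adjusted p = 0.233).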

How the data were processed

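Per the labels' protocols, 30 ng of total RNA per sample went into a stranded mRNA kit. The authors deposited 1 table of raw read counts per gene symbol, with 1 column per library. The submitters' processing notes name the GRCm38 (mm10) build and DESeq2. Which aligner, counter, strand setting and annotation were used is not given in the sources used here.

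Genes were filtered with edgeR's filterByExpr by group, scaled with TMM factors and compared with edgeR 4.0.16 (two-sided quasi-likelihood F test on group alone, R 4.3.3), with Benjamini-Hochberg adjustment over all 10789 genes tested and a threshold of 0.05. The SE is the log2 difference over the square root of F. CPM uses the TMM-scaled library sizes, and log2 CPM a prior count of 2. Lengths are those of the longest GENCODE M21 transcript, found for 18338 of 18407 symbols. Promoters are from RefSeq (GRCm38.p6).

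Alternatives were DESeq2 1.42.0, other scalings and filters, a replicate block, a length and GC offset (splines of 5 degrees of freedom) and leaving out libraries or code letters. Fits of Slc1a3 without a filter were added after its values were seen. Of the carriers, those that passed the filter were named. Values in every library were given for those with p under 0.05 and for the 8 highest, and others so shown were chosen after their values were seen. From each companion list up to 3 genes with the lowest p were named. Atf4 and Asns were named outside that rule, at an unadjusted p of 0.735 and 0.954 in edgeR, as were Mfsd12 and Ctns. Carriers, lists and tests were chosen with earlier results of these data known. The steps were tested on simulated data with the same spread for every gene and no effect of code letter, transcript length or GC content. Their behaviour under such effects was not tested. Some genes of the table are not reported here.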

Additional observations from a re-analysis of the deposited data

Results flagged for a closer look

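No library of the 25 tested carriers stood far from the other 4 of its group by Dixon's ratio, in 50 groups of 5, where chance sets apart about 5%.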

How the results depend on the processing

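Genes called over the whole table numbered 16, and 214 with DESeq2, 29 with no filter, 104 with the length and GC offset, 0 with the replicate block, 2083 without letter B, 5 without D, 1 without E, 5 without F, and 0 to 64 without a single library. Carriers called numbered 0 of 25 (against 0.148% of all genes), and 1 (Slc1a3) with DESeq2 (against 1.48%), no filter (against 0.201%) or 1 CPM in 5 libraries (against 0.162%). Without letter B 4 of 26 carriers were called, against 18.9% of all genes. Carriers at an unadjusted p under 0.05 numbered 2 (8%, against 11.7% of all genes), and 4 with DESeq2 or no filter (8.89%, against 10.7%), 7 without letter B (26.9%, against 37.1%), 4 without D (15.4%, against 11.6%), 1 without E (3.85%, against 4.89%), and 2 to 6 without a single library (6 without collagen replicate 1, 24%, against 14.8%). Carriers with separate groups numbered 0 (against 3.23% of all genes), and 1 with no filter (2.22%, against 2.72%), with 1 CPM in 5 libraries (3.85%, against 3.29%, Slc1a3 in both) or with the offset (Slc7a2, 4%, against 3.95%), 9 without letter B (34.6%, against 41.3%), 4 without D (15.4%, against 7.26%), 2 without E (7.69%, against 9.99%), 2 without F (8%, against 8.54%), and 0 to 2 without a single library (2 without collagen replicate 4, 7.69%, against 4.11%). Slc1a3 is among the carriers counted without letter B, D or E, both by p and by separate groups, and is the only one by p without E. It is also 1 of the 2 with separate groups without collagen replicate 4. In these fits it met the filter only through the laminin libraries. Companion genes called numbered 1 (Ace, where 0.148% of all genes were called), 5 with DESeq2 (where 1.48% were) and 16 without letter B (where 18.9% were). They numbered 4 with the offset, 0 with the replicate block or without D, E or F, and 0 to 2 without a single library. Of the 25 tested carriers 11 kept their sign in all 22 fits and 14 turned in at least 1, most often Slc1a2 and Slc7a11 (7 fits each). Of the 9 carriers with values in full, signs turned for Slc38a10 with the offset (-0.004), for Slc38a1 with the offset (-0.11), without letter D (-0.032) and in a range of -0.0626 to 0.1708 without a single library, and for Slc3a2 without letter B (-0.17). At the settings with 0 genes called in edgeR, 939 to 1167 genes had an unadjusted p under 0.05. The cause of these shifts was not tested, except that fits without a filter hold more genes and fits without libraries fewer samples. Replicate numbers did not pair the libraries, since same-numbered libraries correlated at -0.33 to 0.48 and only collagen replicate 5 correlated best with its own number. In the unfiltered replicate block Slc1a3 gave 3.93 (adjusted p = 0.0626). Depth limits the carriers under 0.365 to 0.691 CPM, where a count of 0 leaves the level unknown.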
